A study of Mus musculus with 30 samples.

Results

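Flna, Msn, Tmsb4x, Plp2, Diaph2, Shroom4 and Pdzd4 are protein-coding genes of the mouse X chromosome whose products belong to the actin cytoskeleton or to cell membranes. They were picked by symbol, through the Ensembl identifiers of GENCODE M21, and make up 7 of the 55154 genes of the count table that have a match there. All 7 passed the filter on low counts, a mean count of 10 over the libraries, which left 15585 genes for testing, 615 of them X-linked. The question put to them was how their RNA changes when a cell keeps 1 copy of the gene instead of both.

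The data are bulk RNA-seq of 30 libraries from female mouse embryonic stem cells (mESCs) with a 129/Sv and a Cast/Ei X chromosome, so that reads over a SNP can be given to the 129/Sv allele (here Mus) or to the Cast allele. XX wild type and XX Rnf12+/- had 2 libraries each, and so had XCastO129 and X129OCast, XO lines that lost the 129/Sv and the Cast/Ei X chromosome. The other 22 libraries came from 13 lines that are Rnf12+/- and carry in addition a heterozygous deletion of a segment of the X chromosome, named A, B, AB, C, C-G, D, E, F, H, I, I-TEL, J and K. A, B, AB and C-G had 1 library each, and the others had 2. XX Rnf12+/- is thus the control that shares the Rnf12 mutation with the deletion lines. Per the study's methods that mutation lies on the Mus X chromosome, and the bulk samples other than wild type stem from an Rnf12+/- parent, so that X129OCast keeps the mutated copy of Rnf12 and XCastO129 the intact one. The counts fit the labels: Rnf12 stood at 193 to 211 TPM in XX wild type, 77.6 to 79.7 TPM in XX Rnf12+/-, 50.4 to 144 TPM in the deletion lines, 71.2 and 77.8 TPM in XCastO129 and 3.53 TPM in both X129OCast libraries. Per the study's methods, replicates were independent clones, the neomycin resistance cassette stayed in every deletion line, and J and I-TEL descend from another Rnf12+/- line than the rest. The labels do not say whether the libraries of the XX and XO lines are from separate cultures, so the spread between these libraries may be technical. The p-values of the main test rest on a spread between libraries that the model draws from all conditions, deletion lines included.

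The libraries fall into 3 batches by their names. The first holds the XX lines, wild type and Rnf12+/-, together with deletion E (6 libraries, 20374510 to 21180709 counts each), another the remaining 12 deletion lines (20 libraries, 8815980 to 10679746 counts), and the last the XO lines (4 libraries, 14997997 to 16494587 counts). The XO libraries were single reads from another sequencer and all others read pairs, which means that the XO state cannot be separated from its batch and its kind of read. Stem cell identity was clear in every library: the 8 markers of mESCs summed to 4047 to 7019 CPM (counts scaled to a common library size), none of them at 0. The cells were grown on mouse embryonic fibroblast feeders, which the protocol depletes by pre-plating, yet the 17 fibroblast markers summed to 269 to 1606 CPM, with none at 0 in any library. Between 60.7 and 93.7% of the allelic reads of these markers were Mus. In bulk RNA, fewer cells of a type and less RNA per cell cannot be told apart.

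Actin filaments lie beneath the plasma membrane and give cells their shape, stiffness and contact with their surroundings. Filamin A (Flna) cross-links filaments, moesin (Msn) ties them to membrane proteins, thymosin beta 4 (Tmsb4x) holds actin monomers in reserve, the formin Diaph2 nucleates and extends straight filaments, and Shroom4 is an actin-binding protein of the Shroom family. Plp2 is a small membrane protein with several membrane spans, and Pdzd4 carries a PDZ domain, a module that binds the tails of other proteins. Female mESCs keep both X chromosomes active, and cells left with a single active X may raise the output of its genes, a process called X-chromosome upregulation.

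Flna and Pdzd4 (mm10, X chromosome, 74223461 to 74249820 and 73793359 to 73824969, both on the minus strand) lie in deletions C-G and E. Msn (96096042 to 96168552, plus strand) lies in C-G only. Shroom4 (6399854 to 6637448, plus strand) and Plp2 (7667941 to 7671390, minus strand) lie in A and AB. Diaph2 (129749742 to 130465834, plus strand) lies in I and I-TEL, and Tmsb4x (167207093 to 167209315, minus strand) in I-TEL alone. This gives 9 comparisons of a gene within a batch, beside 14 comparisons in the XO lines. All of these use edgeR's quasi-likelihood test with Benjamini-Hochberg adjustment over the 15585 genes.

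Changes are given as the log2 fold change per copy, for which each count was divided by the copies present. A value of 0 means that the total fell in proportion to the copies, and 1 means that a single copy gave as much RNA as both copies. Within a batch, 1 of the 9 comparisons was called higher per copy, Diaph2 in I and I-TEL, and 1 lower, Tmsb4x in I-TEL. Among all genes tested, 15.9% were called in I and I-TEL (8.68% higher), 16.1% in I-TEL (6.47% lower), 8.57% in A and AB, 0.417% in C-G and 0.122% in E. Of the 9 estimates 7 were above 0, the 95% interval of 5 held 0, and that of none held 1. The total was called lower in 6 of the 9 comparisons, against 7.62% of all genes with a lower total in I and I-TEL, 7.17% in I-TEL, 4.83% in A and AB, 1.05% in C-G and 0.391% in E. Most genes keep both copies, so these shares of totals are not a like comparison for genes with 1 copy. Per copy, of 38 other protein-coding genes with 1 copy in A and AB, 5.3% were called higher and 0 lower. In C-G it was 2.2 and 1.3% of 232 such genes, and in E 1.5 and 1.5% of 66.

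**Figure D1:**
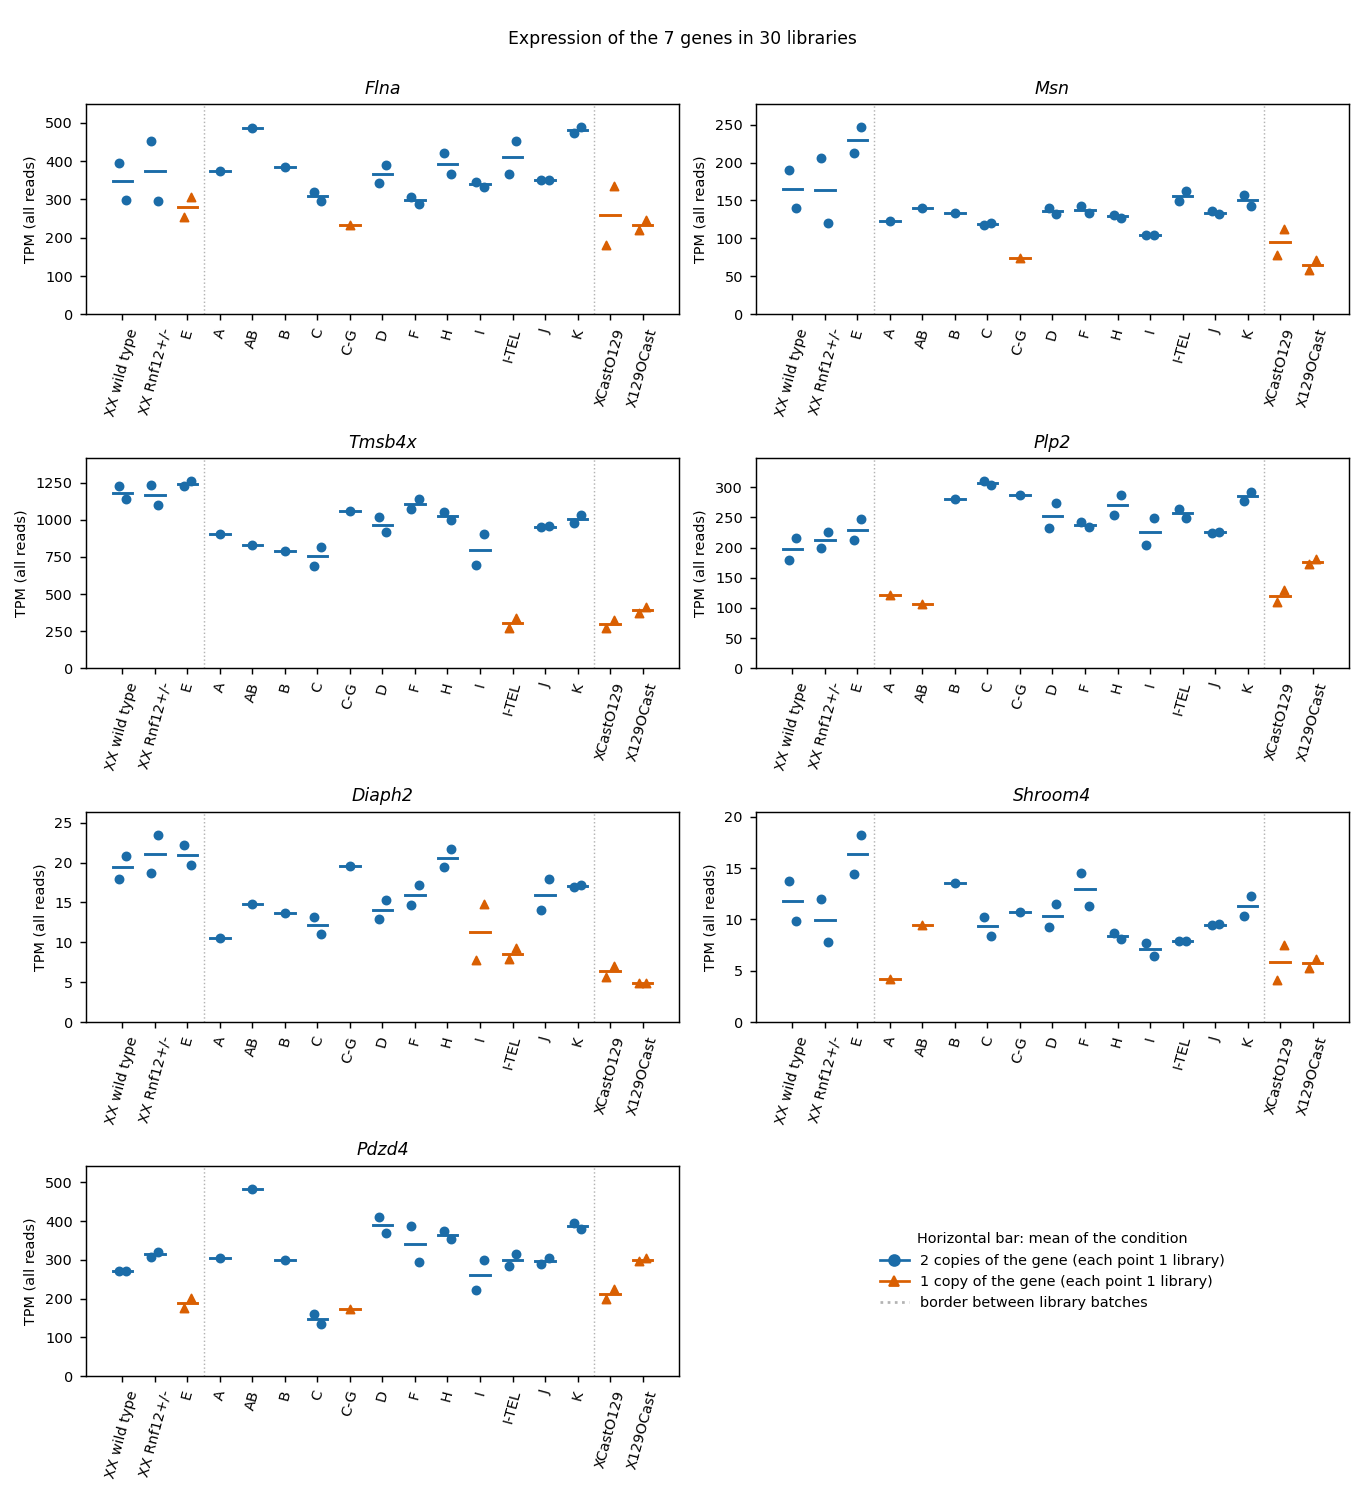
Level of each gene in TPM (counts per exon length at a common total, axes starting at 0) in each of the 30 libraries, ordered by condition along the horizontal axis. Orange triangles are libraries with 1 copy of the gene, blue circles libraries with 2 copies, and dotted lines mark the borders between batches. The I-TEL libraries of Tmsb4x (269 and 337 TPM) lie well below the 2-copy libraries of their batch (691 to 1141 TPM), whereas Pdzd4 in deletion C, with both copies, lies as low as in the 1-copy lines.

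Flna, the filamin gene, was the most abundant of the genes after Tmsb4x. In deletion C-G it stood at 233 TPM, below all 19 libraries of its batch with both copies, which ran from 289 to 489 TPM around a median of 366 TPM. In deletion E the 2 libraries gave 254 and 306 TPM, beside 395 and 299 TPM in XX wild type and 453 and 295 TPM in XX Rnf12+/-. The 1-copy libraries of E thus overlapped the 2-copy libraries of their batch.

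The per-copy change of Flna was 0.29 (SE 0.21) in C-G and 0.53 (SE 0.21) in E, and neither passed the test (adjusted p = 0.659 and 0.321). An exact permutation test over the libraries of the batch gave p = 0.4 for C-G against 19 libraries (two-sided, smallest possible p 0.1), and p = 0.133 for E against 4, the smallest that this design allows. There were 9 such tests, 1 for each gene and deletion. Both E libraries were above all 4 XX libraries per copy. The total of Flna fell by 0.71 on the log2 scale in C-G and by 0.47 in E without passing the test (adjusted p = 0.173 and 0.370).

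Reads of the Mus allele of Flna remained where the Mus copy is deleted. In deletion E they were 341 of 1425 allelic reads (23.9%, 95% Wilson interval 21.8 to 26.2%) and 575 of 1720 (33.4%, 31.2 to 35.7%). In XCastO129 they were 188 of 1658 (11.3%) and 386 of 2938 (13.1%), but in C-G only 13 of 638 (2.04%, 1.20 to 3.46%). Libraries with both copies had 50.3 to 64.1% Mus reads. The intervals cover counting error only.

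The fibroblast markers summed to 1102 and 1571 CPM in the E libraries, 437 and 935 CPM in XCastO129 and 304 CPM in C-G, so the libraries with the larger sums also had the larger Mus share of Flna. The single markers did not all follow the sum. Acta2 stood at 330.4 and 488.5 TPM in E and at 42.9 and 108.5 TPM in XCastO129. The collagen gene Col1a1 stood at 116 and 182 TPM in E and at 37.6 and 89.0 TPM in XCastO129. Col6a3 went the other way, with 4.93 and 6.87 TPM in E against 9.46 and 21.97 TPM in XCastO129. The strain of the feeders is not given in the sources used here. With the summed marker level as a covariate, an alternative added after seeing the data, the per-copy change of Flna in C-G was 0.58 (adjusted p = 0.0214). Flna in E did not pass with this covariate, nor without it.

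Cast reads alone give a view of the copy that these lines kept. These reads were scaled to a common total of autosomal Cast reads, not of all counts as in CPM. On this scale Flna had 978 and 993 Cast reads in deletion E, against 859 and 630 in XX Rnf12+/-, and both E libraries were the higher. In C-G Flna had 1050. Among the 19 libraries of that batch with both copies, only AB (1059) and K (1106 and 1176) were higher. The rest of them ran from 595 to 914. In XCastO129 Flna had 909 and 1629. The Cast change of Flna was 0.39 in E and 0.35 in C-G, neither of which passed (adjusted p = 0.529 and 0.756), and 0.85 in XCastO129 (SE 0.17, adjusted p = 0.000605). Of the 8622 genes with enough Cast reads, 0.0696% were called in E, 0 in C-G (561 at an unadjusted p under 0.05) and 25.4% in XCastO129.

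**Figure D2:**
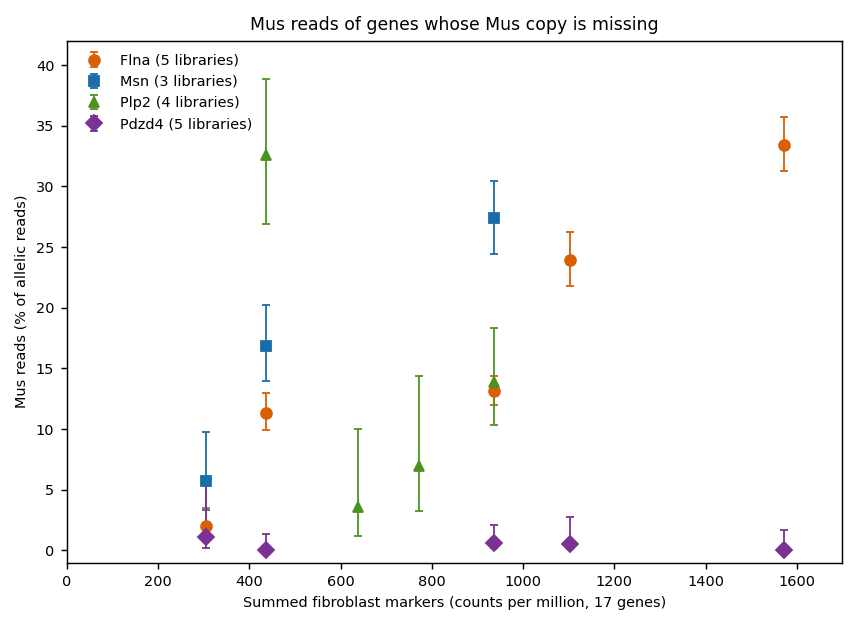
Share of Mus reads (vertical axis, %, with 95% Wilson intervals) of genes whose Mus copy is absent, against the summed level of the 17 fibroblast markers (horizontal axis, CPM), 1 point per gene and library. Flna and Msn stand highest in the libraries with the larger marker sums, up to 33.4% for Flna in deletion E at 1571 CPM, and Pdzd4 stays near 0 in every library.

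Msn, the moesin gene, gave 74.8 TPM in C-G, below its 19 libraries with both copies at 104 to 163 TPM (median 133 TPM). The total fell by 0.84 on the log2 scale and narrowly missed the threshold (adjusted p = 0.0589), and the per-copy change of 0.16 (SE 0.20) did not pass (adjusted p = 0.823, exact permutation p = 0.4). The Mus share in C-G was 12 of 210 reads (5.71%), against 48.9 to 74.3% where both copies were present. In deletion E, which keeps both copies of Msn, its mean level was 230 TPM, the highest of the 17 conditions. XX wild type followed, with 191 and 140 TPM, and then XX Rnf12+/-. These conditions are those of the first batch, so the order also follows the batch. Against XX Rnf12+/-, Msn was not called in E. Msn varied more than 1.5-fold within XX Rnf12+/- (207 and 121 TPM), the line whose libraries also had fibroblast sums of 1606 and 392 CPM.

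Tmsb4x, the thymosin gene, was the most abundant of the genes and the one with the clearest loss. Deletion I-TEL gave 269 and 337 TPM, and the 18 libraries of its batch with both copies gave 691 to 1141 TPM with a median of 953 TPM. The total fell by 1.65 on the log2 scale (adjusted p = 1.5e-08), to less than the share of copies left. Per copy the change was -0.65 (SE 0.10, adjusted p = 0.000135), with both libraries below all 18 others. The exact permutation p was 0.0105, the smallest that 2 libraries against 18 allow, and 0.0948 after adjustment over the 9 tests.

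Deletion J stems from the same Rnf12+/- founder as I-TEL and keeps both copies of Tmsb4x, with 951 and 955 TPM. Against J alone, the per-copy change in I-TEL was -0.69 with an adjusted p of 0.0513. In XX wild type Tmsb4x stood at 1228 and 1137 TPM, and in XX Rnf12+/- at 1233 and 1098 TPM. Of 147 other protein-coding genes with 1 copy in I-TEL, 31 were called higher per copy (21.1%, against 9.61% of all genes) and 10 lower (6.80%, against 6.47%), with a median of 0.13. Tmsb4x has few reads over SNPs, with 2 Cast and 0 Mus reads in each I-TEL library, so its allele was not tested there.

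Diaph2, the formin gene, was expressed at a low level. Deletion I gave 7.82 and 14.9 TPM, I-TEL 7.90 and 9.31 TPM, and the 16 libraries with both copies 10.6 to 21.7 TPM (median 15.0 TPM). The second I library lay within the range of the 2-copy libraries and the other 3 below it. The total fell by 0.64 on the log2 scale (adjusted p = 0.00166), and the per-copy change was 0.36 (SE 0.11, adjusted p = 0.0368).

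The call for Diaph2 rested on deletion I, where the change was 0.59 (adjusted p = 0.0183), against 0.13 in I-TEL (adjusted p = 0.615), where 9.49 and 16.8% of all genes were called. The difference between the lines, 0.46, did not pass (adjusted p = 0.166). An exact permutation over 4 against 16 libraries gave p = 0.117. The call was lost in 7 of the 16 cases in which a library was left out: without the second I library the change was 0.12 (adjusted p = 0.484), without the second I-TEL library 0.31 (0.192), and without the first I-TEL, the second C or the first D, H or J library 0.34 to 0.41 (0.0501 to 0.0591). All 5 other protein-coding genes with 1 copy in both lines were called higher, with a median of 0.93. Allelic reads were few, with 8 and 5 Mus and no Cast reads in deletion I, and 1 and 0 Mus and 7 and 5 Cast reads in I-TEL: by these reads deletion I lost the Cast copy and I-TEL the Mus copy.

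Shroom4 was the other gene of low level. Deletion A gave 4.24 TPM and AB 9.44 TPM, and the 18 libraries with both copies gave 6.47 to 14.52 TPM (median 9.48 TPM). A was below them all and AB close to their middle. The total was called lower for the pair (-0.65, adjusted p = 0.0491), and the per-copy change was 0.35 (SE 0.19, adjusted p = 0.297, exact permutation p = 0.211). Taken alone, A gave -0.23 and AB 0.92 per copy (adjusted p = 0.691 and 0.0460), against 6.94 and 2.72% of all genes called. Each of these lines has 1 library. The total of Shroom4 was -0.08 without the A library, and its call was lost in 15 of 18 cases in which a library was left out.

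Plp2, the gene of the membrane-spanning protein, had its lowest mean levels in AB, XCastO129 and A, all with 1 copy. Deletion A gave 121 TPM and AB 107 TPM, with no overlap with the 18 libraries that keep both copies, at 204 to 311 TPM (median 259 TPM). The total fell by 1.21 on the log2 scale (adjusted p = 5.72e-07). Per copy the change was -0.21 (SE 0.09, adjusted p = 0.173, exact permutation p = 0.147), and the Cast allele changed by 0.02 (SE 0.19, adjusted p = 0.979), with 1.19% of genes called on that allele. The Mus allele gave 72.5 to 81.1% of the Plp2 reads in the libraries of this batch with both copies, so that loss of the Mus copy removes the larger part of its allelic reads. In A and AB 6 of 86 and 3 of 84 reads were Mus.

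Pdzd4, the PDZ domain gene, gave 173 TPM in C-G and 175 and 201 TPM in E. XX wild type had 272 and 270 TPM and XX Rnf12+/- 309 and 320 TPM, so that both E libraries lay below all 4. The total was called lower in both deletions (-0.87 in C-G, adjusted p = 0.00176, and -0.80 in E, adjusted p = 0.00262). The per-copy changes were 0.13 (SE 0.13) and 0.20 (SE 0.13) and did not pass (adjusted p = 0.788 and 0.578). Hardly any Mus reads were left, with 1 of 93 in C-G and 1 of 201 and 0 of 226 in E. In E, the allelic reads of Pdzd4 thus came almost wholly from the retained copy, unlike those of Flna. Without the first E library, the total of Pdzd4 in E changed by -0.73 and no longer passed (adjusted p = 0.0862).

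**Figure D3:**
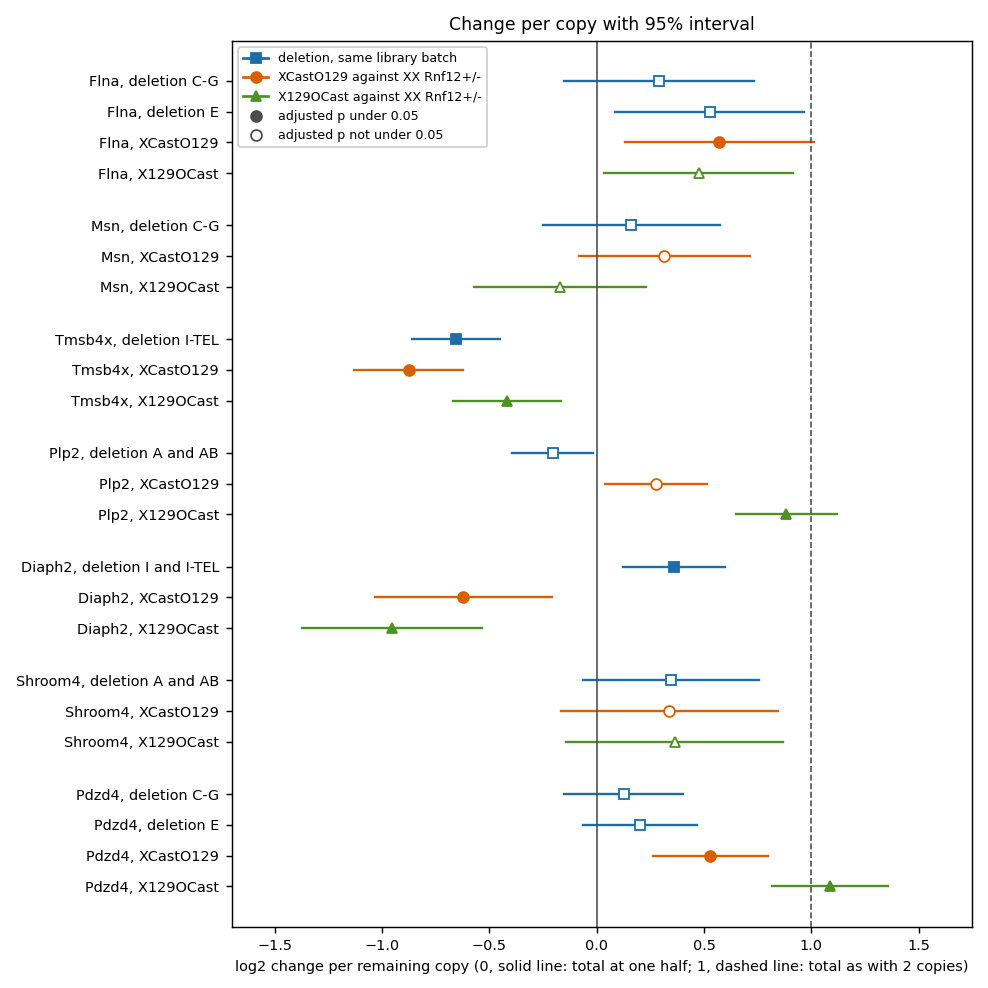
Log2 change per copy with 95% intervals for each gene in the deletion lines, compared within a batch, and in the XO lines, compared with XX Rnf12+/-. Filled points have an adjusted p under 0.05, and lines mark 0 (total in proportion to copies) and 1 (total kept). Tmsb4x lies below 0 in I-TEL (-0.65) and in both XO lines, and Pdzd4 lies near 1 in X129OCast (1.09).

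The XO lines had 1 copy of every gene. In XCastO129, 2 of the 7 were called higher per copy than in XX Rnf12+/- and 2 lower, against 18.1 and 17.9% of all genes (36.0% in all). In X129OCast the counts were also 2 and 2, against 23.8 and 24.7% (48.5% in all). The totals of 6 and 5 of the 7 were called lower, against 19.9 and 26.2% of genes called lower in total. Most of those genes keep both copies, so these shares are not a like comparison for genes with 1 copy. Of 478 other protein-coding X-linked genes, all with 1 copy, 16.5% were called higher per copy in XCastO129 and 23.4% lower (median -0.12). For X129OCast the shares were 20.7 and 33.7% (median -0.21). Both XO lines share the XX Rnf12+/- libraries as their reference, and batch and read type differ from that reference. X129OCast differs from it also in lacking an intact Rnf12, and that difference is confounded with the missing Cast X chromosome.

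Tmsb4x was low in both XO lines, at 268 and 323 TPM in XCastO129 and at 375 and 411 TPM in X129OCast. The change per copy was -0.88 (SE 0.12, adjusted p = 1.9e-05) and -0.42 (SE 0.12, adjusted p = 0.00799). Diaph2 also fell below its copies, at 5.70 and 7.03 TPM and at 4.85 and 4.92 TPM (-0.62, adjusted p = 0.0194, and -0.95, adjusted p = 0.00071). The call for Tmsb4x in X129OCast was lost without its first library (-0.35) or the first XX Rnf12+/- library (-0.33), and that for Diaph2 in XCastO129 without its first library (-0.48) or the second XX Rnf12+/- library (-0.45). All XO libraries were below all 6 libraries of the first batch for both genes.

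Pdzd4 and Plp2 went the other way in X129OCast. Pdzd4 stood at 296 and 304 TPM, within the range of the XX libraries (270 to 320 TPM), and rose by 1.09 per copy (SE 0.13, adjusted p = 1.77e-06), so that its total did not pass the test (0.09, adjusted p = 0.599). Plp2 stood at 173 and 181 TPM and rose by 0.88 per copy (SE 0.11, adjusted p = 4.44e-06), again with a total that did not pass (-0.12, adjusted p = 0.411).

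In XCastO129 Pdzd4 gave 198 and 224 TPM, with a per-copy rise of 0.53 (adjusted p = 0.00331), and Plp2 110 and 130 TPM, with a change of 0.28 that did not pass (adjusted p = 0.0642). Set directly against each other, X129OCast exceeded XCastO129 by 0.61 for Plp2, 0.56 for Pdzd4 and 0.46 for Tmsb4x (adjusted p = 0.00412, 0.0142 and 0.0283), 3 of the 7 genes against 3.65% of all genes called higher. Each of the 3 was higher in both X129OCast libraries than in both XCastO129 libraries. The calls for Pdzd4 and Tmsb4x were lost without the first XCastO129 library (0.48 and 0.34), the first X129OCast library (0.57 and 0.52) or the second one (0.54 and 0.39), and the call for Plp2 was not. The lines also differ in Rnf12 (3.53 TPM in X129OCast, 71.2 and 77.8 TPM in XCastO129), which cannot be told apart from the X chromosome that they keep.

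The allele reads put these values beside the allelic balance of the XX cells. On the Mus allele, kept by X129OCast, Pdzd4 rose by 1.18 (adjusted p = 7.52e-05), Plp2 by 0.35 (adjusted p = 0.0244) and Msn fell by 0.86 (adjusted p = 0.00355), against 36.6% of the genes tested on that allele. The Mus reads of Msn in the reference were uneven. Scaled to a common total of autosomal Mus reads, they stood at 666 and 310 in XX Rnf12+/-, beside 237 and 269 in X129OCast. The fibroblast sums of these XX Rnf12+/- libraries, scaled to all counts, were 1606 and 392 CPM. With the fibroblast covariate, the per-copy change of Msn from all reads in X129OCast was 0.093 instead of -0.17. On the Cast allele, kept by XCastO129, Msn rose by 0.44 (adjusted p = 0.0194), while Pdzd4 (0.37, adjusted p = 0.156), Plp2 (0.04, adjusted p = 0.930) and Shroom4 (0.27, adjusted p = 0.595) did not pass. In XX Rnf12+/-, 72.4 and 73.7% of the Plp2 reads and 52.9 and 52.7% of the Pdzd4 reads were Mus.

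Flna gave 181 and 336 TPM in XCastO129, wide apart, and 221 and 246 TPM in X129OCast. It was called higher per copy in XCastO129 (0.57, adjusted p = 0.0407) and not in X129OCast (0.48, adjusted p = 0.0691), and the difference between the lines was -0.10 (95% interval -0.54 to 0.34). Without the second XCastO129 library the change there was 0.06, and without the second XX Rnf12+/- library 0.29, neither of which passed. Without the first XX Rnf12+/- library the change in X129OCast was 0.82 and passed (adjusted p = 0.00909). Msn gave 77.7 and 112 TPM and 58.8 and 72.2 TPM. Its per-copy changes of 0.31 and -0.17 did not pass (adjusted p = 0.209 and 0.484), and turned to -0.02 without the second and 0.27 without the first XX Rnf12+/- library. The second XCastO129 library was the higher for both genes and also had the larger fibroblast sum, 935 against 437 CPM.

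Mus reads were found in XCastO129 for Msn (93 of 552 and 229 of 837 reads, 16.9 and 27.4%) and Plp2 (76 of 233 and 40 of 289 reads, 32.6 and 13.8%) as for Flna, but for Pdzd4 only in 0 of 288 and 2 of 341 reads. The Plp2 share was larger in the library with the smaller fibroblast sum. In X129OCast, 0 to 7 Cast reads were left per gene and library. Shroom4 gave 4.12 and 7.55 TPM in XCastO129 and 5.32 and 6.15 TPM in X129OCast, with per-copy changes of 0.34 and 0.36 that did not pass (adjusted p = 0.291 and 0.227). Its Mus reads in XCastO129 were 7 of 34 and 10 of 64. For Tmsb4x, with few allelic reads, they were 7 of 9 and 2 of 12, and for Diaph2 0 of 1 and 0 of 12.

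**Figure D4:**
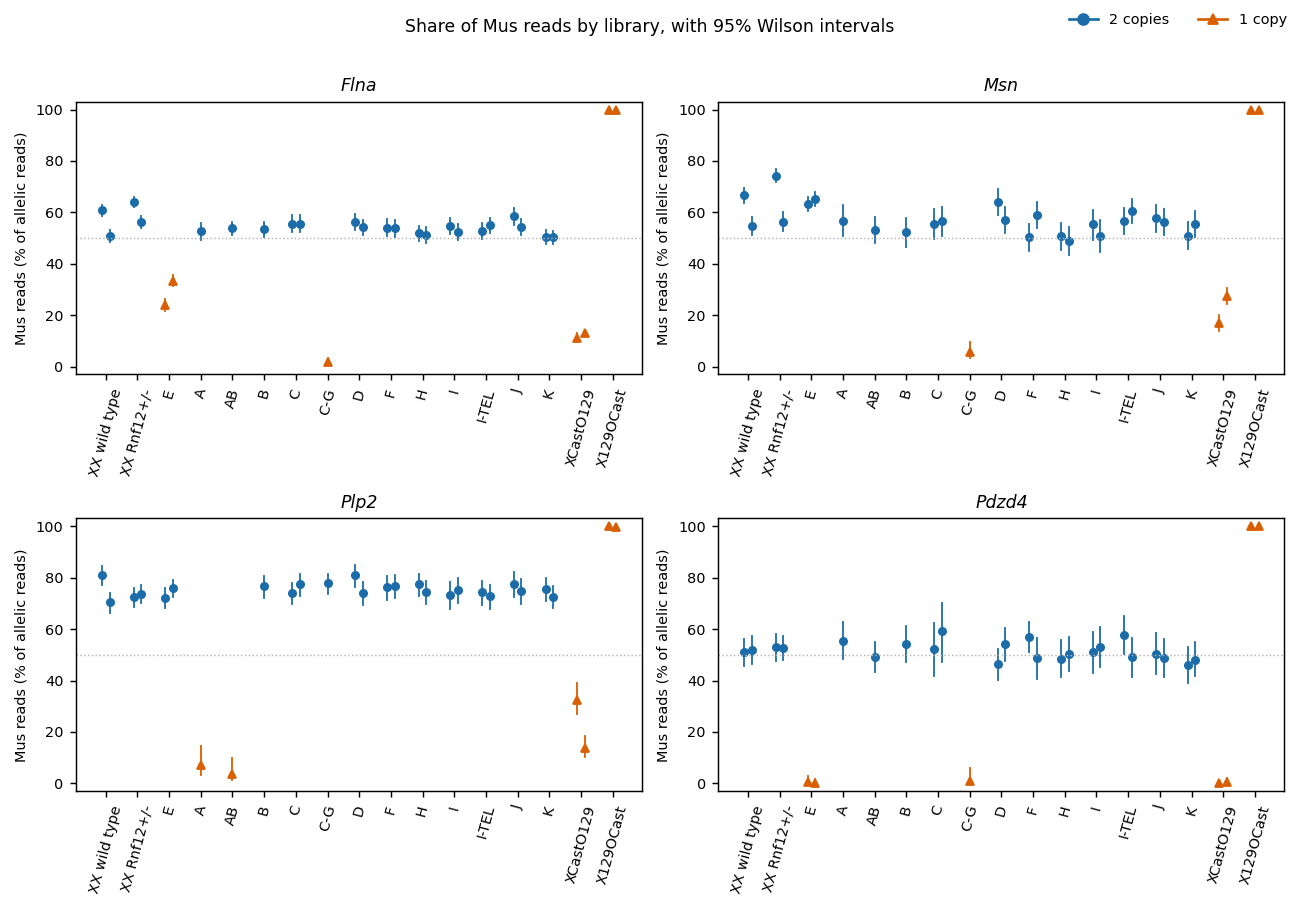
Share of allelic reads given to the Mus allele (vertical axis, %, with 95% Wilson intervals) for Flna, Msn, Plp2 and Pdzd4 in each library along the horizontal axis. Where the Mus copy is missing, Pdzd4 drops to near 0, Flna in deletion E keeps 23.9 and 33.4%, and Plp2 in XCastO129 keeps 32.6 and 13.8%. With both copies Plp2 lies well above an even share, at 70.4 to 81.1%.

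Both copies present did not mean a steady level. Pdzd4 ranged from 136 to 484 TPM over the 19 libraries of the larger deletion batch that keep it. Deletion C, which keeps both copies of Pdzd4, had 162 and 136 TPM (149 TPM ± 18.5, SD, n = 2), lower than the 173 TPM of C-G with 1 copy, and AB was highest at 484 TPM. D followed with 412 and 370 TPM. Against the other lines of the batch, comparisons added after these values were seen, Pdzd4 fell by 1.18 in C (adjusted p = 2.1e-07) and rose by 0.66 in AB (adjusted p = 0.00773) and 0.36 in D (adjusted p = 0.0167). The Mus share of Pdzd4 kept within 46.0 to 59.1% over the 2-copy libraries of this batch.

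Deletion C was also the line in which more of the genes moved without a change of copies. There Plp2 rose by 0.30 (adjusted p = 0.00795), Diaph2 fell by 0.40 (adjusted p = 0.0478) and Tmsb4x by 0.24 (adjusted p = 0.0459), 4 of the 7 with Pdzd4. The other lines include those with 1 copy of the gene, taken per copy: A and AB for Plp2, I and I-TEL for Diaph2, I-TEL for Tmsb4x and C-G for Pdzd4. Among all genes tested, 36.0% were called in C, 13.1% in D, 2.00% in AB and 4.61% in F. In F, Tmsb4x rose by 0.39 (adjusted p = 0.0159), at 1070 and 1141 TPM. The Rnf12 mutation by itself called none of the 7 genes against XX wild type, with changes between -0.23 and 0.23 and no unadjusted p under 0.05, against 3.16% of all genes.

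By condition, the lowest mean level belonged to a 1-copy line for 6 of the 7 genes, and to deletion C for Pdzd4. For Flna the first conditions in order were C-G (233 TPM), X129OCast, XCastO129 and E, all with 1 copy, and the 2 libraries of XCastO129 spanned the values of the other 3 lines. For Tmsb4x, XCastO129 (295 TPM) and I-TEL (303 TPM) did not differ beyond the spread between libraries, and X129OCast followed. For Msn, X129OCast (65.5 TPM) was lowest and C-G (74.8 TPM) next, again closer than the spread between libraries.

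The genes most like each member in level over the 20 libraries of the larger deletion batch were found by Pearson's r of log2 CPM, as a description without a test. Plp2 followed Otud5 (r = 0.95), Praf2 (0.93) and Tfe3 (0.92), which share its copy numbers in all lines. Tmsb4x followed Ubqln2, Fancb and Eif1ax (each 0.91), which do so too. Pdzd4 followed Utp14a (0.95), Slc25a5 (0.93) and Gm5529 (0.92), none of which shares its copy numbers.

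For the other genes the best r were lower. Msn was most like S100a10 (0.82), Idh3g (0.79) and Gm9616 (0.79), Shroom4 like Eras (0.83), Alg3 (0.78) and Clcn5 (0.76), and Diaph2 like Fjx1 (0.77) and Tmsb4x (0.77). Flna was most like Gm13655, G930009F23Rik and Mpp1 (each 0.73). Among the 7 genes themselves, Flna and Msn had an r of 0.69, Flna and Pdzd4 of 0.67. Libraries share lines and copy numbers, so these points are not independent.

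Other X-linked genes of the cytoskeleton and membranes were listed for comparison (54 genes, 41 tested). None of the 23 with 1 copy in C-G and none of the 7 in E was called per copy in either direction. Of the whole list, 7 and 9 of 41 had an unadjusted p under 0.05 in these lines, and DESeq2 called 1 and 0. Of the 2 with 1 copy in both I and I-TEL, both were called higher: Pcdh19, a cadherin of cell contacts, by 1.21 (adjusted p = 0.0231) and Tspan6, a tetraspanin, by 0.93 (adjusted p = 0.00193). Among all genes 8.68% were called higher in I and I-TEL. All 5 protein-coding genes besides Diaph2 with 1 copy in both lines were called higher, Pcdh19 and Tspan6 among them. Of the 10 with 1 copy in I-TEL 2 were called higher and 2 lower, against 9.61 and 6.47% of all genes. Of the 147 protein-coding genes besides Tmsb4x with 1 copy there, 21.1% were called higher and 6.80% lower.

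In XCastO129, 8 of the 41 were called higher and 7 lower, near the 18.1 and 17.9% of all genes (median -0.10, and -0.01 over all genes). L1cam, a cell adhesion molecule, rose by 1.44 and Mid1, a microtubule-associated ubiquitin ligase, by 1.14 (adjusted p = 0.000187 and 0.0342). Mid1 had few and uneven counts, 11 and 27 in XCastO129 (0.34 and 0.84 TPM) against 28 and 19 in XX Rnf12+/- (0.68 and 0.46 TPM). In X129OCast 7 were higher and 10 lower, against 23.8 and 24.7% of all genes (median -0.23, and -0.03 over all genes). There the dynein light chain gene Dynlt3 fell by 1.85 (adjusted p = 2.73e-06). Frmd7, a FERM domain gene, had 0 counts in both X129OCast libraries, against 32 and 32 in XX Rnf12+/- and 10 and 13 in XCastO129.

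Autosomal relatives of the 7 genes, such as the other filamins, formins, ERM proteins and thymosins, keep both copies in every line (19 listed, 16 tested). In C-G and E none was called, with 3 and 5 at an unadjusted p under 0.05 and none by DESeq2. A and AB had 1 called higher and 1 lower, I and I-TEL 2 and 1, and I-TEL 3 and 0. Among all genes, 8.57, 15.9 and 16.1% were called in these comparisons. In XCastO129 6 rose and 2 fell, where 36.0% of all genes were called, and in X129OCast 7 rose and 4 fell, where 48.5% were. Tmsb10, the autosomal relative of Tmsb4x, rose by 1.01 in XCastO129 (adjusted p = 5.97e-07), where Tmsb4x fell by 0.88. In X129OCast it rose by 1.28 (adjusted p = 2.18e-08), where Tmsb4x fell by less, 0.42. Tmsb10 was not called in I-TEL, where Tmsb4x also fell, and a link between these genes was not tested. Of the relatives of Plp2, Cmtm3 and Cmtm7 fell in X129OCast by 1.38 and 1.68 (adjusted p = 0.00112 and 1.34e-05) and in XCastO129 by 1.23 and 0.84 (adjusted p = 0.00392 and 0.00734). Cmtm4 rose in both lines, by 0.45 and 0.53 (adjusted p = 0.0282 and 0.0168).

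Of the general genes of the actin machinery (53 identifiers tested), none was called in C-G or E (5 and 4 at an unadjusted p under 0.05, and 0 and 1 called by DESeq2). A and AB had 3 called higher and 1 lower, I and I-TEL 3 and 5, and I-TEL 3 and 4. The shares of all genes called there were 8.57, 15.9 and 16.1%. In XCastO129 15 were called higher and 7 lower, against 18.1 and 17.9% of all genes, and in X129OCast 16 and 14, against 23.8 and 24.7%. The actin bundler Fscn1 rose by 1.67 in X129OCast (adjusted p = 7.02e-06) and the profilin gene Pfn2 fell by 1.28 in XCastO129 (adjusted p = 4.42e-06). The called genes include an identifier of Myl12b with 0 counts in all 26 paired libraries and 97 to 112 in the XO libraries, which overlaps a further gene of the same symbol and is therefore uncertain. In the XO lines the mESC markers moved too: 1 was higher and 4 lower in XCastO129 (median -0.37), and 0 higher and 5 lower in X129OCast (median -0.65). Of the 17 fibroblast markers, 3 were higher and 1 lower in XCastO129, and 0 higher and 4 lower in X129OCast. The part of these in the XO values was not tested.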

How the data were processed

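Bulk RNA-seq libraries were prepared with a stranded mRNA kit. The authors trimmed the reads with Trim Galore 0.6.7, mapped these with HISAT2 2.2.1 against an mm10 genome whose strain-specific SNPs were N-masked, assigned alleles with SNPsplit 0.3.4, used SAMtools 1.10 for merging and counted reads per gene and strand with featureCounts 2.0.6 on Ensembl 98. The submitters' notes also list HTSeq 0.12.4. The deposited table holds raw counts per gene, without normalization, for each library as all reads, reads of the 129/Sv allele and reads of the Cast allele. Of 55421 genes, 267 had no match in GENCODE M21 and were left out. Their largest share of any library was 0.00401%. For 354 gene and library pairs, allelic reads outnumbered all reads, which was left as it is. Between 12.2 and 12.7% of the counts were allelic in the paired libraries and 21.9 to 22.0% in the XO libraries. TPM were computed from the counts and the union of exons.

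Libraries were grouped by their labels, and copies per gene followed the deletions of the study. The main test was edgeR's quasi-likelihood test (version 4.0.16, under R 4.3.3). Its model took in every library, had a term for each condition, used the logarithm of copies as an offset and scaled libraries by TMM over autosomal genes. Genes with a mean count of at least 10 were kept, and p-values were adjusted by the Benjamini-Hochberg method with a threshold of 0.05. Fits for totals had no copy offset, and the Cast and Mus alleles were fitted on 8622 and 9014 genes with enough allelic counts. Deletion lines were compared with the 2-copy lines of their batch, except E. Deletion E and the XO lines were compared with XX Rnf12+/-. C-G and, taken alone, A and AB have 1 library, assumed to vary like the other groups. DESeq2 1.42.0, other normalizations, filters, references and a replicate block were the alternatives. Level differences per library (log2 CPM per copy, prior count 2) were tested by exact permutation, two-sided, in Python 3.11.15 with numpy 2.4.6 and pandas 2.3.3, and figures drawn with matplotlib 3.10.9. In the permutation, E was set against both XX lines, wild type and Rnf12+/-. On simulated counts, 61 of 100 genes changed by 1 on the log2 scale and 77 of 100 changed by 2 were called in the C-G comparison, 67 and 88 in E and 59 and 92 in XCastO129.

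The 7 genes and the gene lists were chosen with earlier results of these data known, so no pattern in them is independent support. From each list, up to 2 called genes of largest change were named per comparison, and for each of the 7 genes the 3 genes of highest Pearson's r over 20 libraries, 1 of which is not reported here.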

Additional observations from a re-analysis of the deposited data

Results flagged for a closer look

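The XO lines differed from each other for 3 of the 7 genes in a direct test (edgeR's quasi-likelihood test with Benjamini-Hochberg adjustment). X129OCast exceeded XCastO129 per copy by 0.61 on the log2 scale for Plp2 (adjusted p = 0.00412), by 0.56 for Pdzd4 (adjusted p = 0.0142) and by 0.46 for Tmsb4x (adjusted p = 0.0283). Both X129OCast libraries were above both XCastO129 libraries for each of them. Fitted on the 4 XO libraries alone, the changes were 0.60, 0.55 and 0.46, and none of the 7 genes passed (4 had an unadjusted p under 0.05). In XX Rnf12+/- the Mus allele, which X129OCast keeps, gave 72.4 and 73.7% of the Plp2 reads. X129OCast also has no intact copy of Rnf12 (3.53 TPM in both libraries, against 71.2 and 77.8 TPM in XCastO129), and the Rnf12 state cannot be told apart from the X chromosome kept.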

How the results depend on the processing

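Against deletion J alone, the fall of Tmsb4x in I-TEL was -0.69 and missed the threshold (5 genes called in all, against 2507). For Diaph2 the value there was 0.069. Against XX Rnf12+/- of the other batch, signs turned for Plp2 in A and AB (0.037), Msn in C-G (-0.20) and Diaph2 (-0.17). On the retained allele alone, Plp2 in A and AB was 0.023 and Shroom4 in X129OCast -0.18. With the fibroblast covariate, added after seeing the data, Flna (0.58) and Msn (0.44) in C-G passed, Msn in X129OCast turned to 0.093 and Flna between the XO lines to 0.067. There 4 genes were called higher in XCastO129 and 4 in X129OCast, and 3 had a lower total in X129OCast. Without a filter on low counts, Flna in E (0.52) passed. With only the libraries of the contrast, 1 gene was called higher and 1 lower in XCastO129, 3 had a lower total in X129OCast, 0 differed between the XO lines (4 at an unadjusted p under 0.05) and 0 of the 41 other X-linked genes were called in XCastO129 (10 at an unadjusted p under 0.05; DESeq2 on all libraries called 15). With XX wild type as reference, 1 gene was lower in XCastO129. The cause of these changes was not tested.

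Leaving out 1 library at a time gave, per copy, -0.29 to -0.12 for Plp2 and -0.23 to 0.92 for Shroom4 in A and AB, 0.28 to 0.30 for Flna, 0.11 to 0.15 for Pdzd4 and 0.15 to 0.17 for Msn in C-G, 0.25 to 0.87 for Flna and 0.13 to 0.27 for Pdzd4 in E, 0.12 to 0.54 for Diaph2 and -0.81 to -0.52 for Tmsb4x. In XCastO129, Msn ranged from -0.023 to 0.76, Shroom4 from -0.16 to 0.71, members called higher from 1 to 4 and lower from 1 to 2, lower totals from 3 to 7 and other X-linked genes called from 9 to 16. In X129OCast, Msn ranged from -0.51 to 0.27, members called higher from 2 to 4 and lower from 1 to 3, lower totals from 3 to 5 and other X-linked genes called from 15 to 19. Between the XO lines, Flna ranged from -0.47 to 0.41, Shroom4 from -0.35 to 0.52 and calls from 1 to 3.

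Replicate numbers were not taken as pairs: over 78 pairs of groups the correlation of same-numbered libraries ran from -0.36 to 0.69, with 20 over 0.1. It was highest, 0.69, between XX wild type and XX Rnf12+/-, whose first libraries also had the larger fibroblast sums (1220 and 1606 CPM, against 410 and 392 CPM). With the replicate block, Plp2 in XCastO129 passed (0.28, adjusted p = 0.0371), the total of Shroom4 in A and AB did not (-0.67, adjusted p = 0.0536), and 13 genes were called in E against 19.

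Over all genes, 65 were called in C-G, but 127 with DESeq2, 431 without a filter, 207 with the covariate, 134 with the libraries of the contrast and 1757 against XX Rnf12+/-. In E 19 were called, but 114, 599, 55 and 0 (1553 at an unadjusted p under 0.05) in the same order, 32 with a TPM filter and 888 against XX wild type. In A and AB 1335 became 2588 with the covariate and 4720 against XX Rnf12+/-, and in XCastO129 5611 became 1406 with the libraries of the contrast. Allelic reads limit Tmsb4x, Diaph2 and Shroom4, which had few of them.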
